A study of Mus musculus with 23 samples.

Results

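The Rab GTPases were taken as every gene whose symbol is Rab followed by a number and, at most, a paralog letter and digit, which left out Rab effectors and interacting proteins. They numbered 59 of 26139 genes in 2 deposited tables. The table with the vavCre libraries lists 58 of them by name among 22524 genes, with Rab1a under the symbol Rab1. The table with the Spic and TAM libraries lists all 59 among 25700. Rab7b stands in the vavCre table under its older symbol 5430435G22Rik and was counted there by its Ensembl identifier, ENSMUSG00000052688. By their best known site of action 13 were grouped as ER and Golgi, 7 as early endosome, 9 as recycling, 9 as late endosome, lysosome and autophagy, 3 as lysosome-related organelle, 13 as secretory and 5 as other.

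The study sequenced messenger RNA of macrophages sorted from C57BL/6 mice, with 1000 cells in each of 23 libraries. The vavCre table holds 12 libraries from pups at day 7 after birth: spleen red pulp macrophages of the genotype vavCre (RPM_d7_vavCre, n = 3) and wild type (RPM_d7_WT, n = 3), and bone marrow macrophages of the same genotypes (BMM_d7_vavCre and BMM_d7_WT, n = 3 each). The Spic and TAM table holds 11 libraries of spleen red pulp macrophages. Of these, 5 are from day-7 pups labelled Spic_KO (RPM_d7_Spic_KO, n = 2) or Spic_WT (RPM_d7_Spic_WT, n = 3), and 6 are from adults labelled TAM_CreERT2 (RPM_TAM_CreERT2, n = 4) or WT (RPM_TAM_WT, n = 2). The labels do not spell out TAM, which is read here as tamoxifen, the drug that switches on CreERT2. Vav-driven Cre acts in blood-forming cells generally, so macrophages are not its only site of action. The promoter of CreERT2 and the floxed gene are not stated in the labels, and the series' design text speaks of Pparg-deficient cells that were left. No label says whether the libraries of a group came from separate animals, so the p-values measure the spread between libraries, which may be technical.

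Rab proteins are small GTPases that mark the membranes of a cell and direct vesicles between them. Exchange factors load them with GTP, GTPase-activating proteins switch them off, and effectors bind the active form to tether, move or fuse vesicles. In macrophages, Rab5 and Rab7 act in turn as phagosomes mature from early to late, Rab11 returns receptors to the surface, Rab27 and Rab3 serve secretion, and Rab32 serves lysosome-related organelles. Red pulp macrophages take up and digest old red blood cells, and marrow macrophages of erythroblastic islands engulf the nuclei that red cell precursors expel.

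The 3 Rab genes below rose in vavCre macrophages of at least 1 tissue, by the test given further down. Rab19, which fell in both tissues, is not shown. Promoter windows that overlapped the annotated gene by more than a few bases were left out. Their promoters are shown as the 250 bases before the RefSeq start in GRCm38.p6, 5′ to 3′ along the gene, with short motif matches in capitals. The motifs searched on both strands were GAGGAA (a PU-box core), AGGTCA (a nuclear receptor half-site), CACGTG (an E-box) and CCGGAA (an ETS-family core, added once the sequences had been read).
Rab11a (chr9:64737757-64738006, minus strand): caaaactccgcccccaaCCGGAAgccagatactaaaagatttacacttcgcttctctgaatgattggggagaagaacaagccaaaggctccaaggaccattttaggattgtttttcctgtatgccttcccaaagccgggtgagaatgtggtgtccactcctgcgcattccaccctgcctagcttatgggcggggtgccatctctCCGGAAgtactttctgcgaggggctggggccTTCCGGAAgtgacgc
Rab1a (chr11:20201162-20201411, plus strand): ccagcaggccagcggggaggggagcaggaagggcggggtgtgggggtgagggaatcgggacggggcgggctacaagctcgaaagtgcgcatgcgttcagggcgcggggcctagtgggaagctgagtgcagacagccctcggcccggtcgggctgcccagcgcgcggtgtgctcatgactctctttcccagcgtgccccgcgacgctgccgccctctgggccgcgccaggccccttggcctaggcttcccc
Rab31 (chr17:65772753-65773002, minus strand): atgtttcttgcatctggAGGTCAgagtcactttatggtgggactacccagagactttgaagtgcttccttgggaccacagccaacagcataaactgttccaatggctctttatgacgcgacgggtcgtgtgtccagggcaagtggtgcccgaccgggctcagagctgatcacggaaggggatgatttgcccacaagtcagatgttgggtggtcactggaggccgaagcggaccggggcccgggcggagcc
Rab11a held 4 matches of CCGGAA, of which 2 on opposite strands overlap, and Rab31 held 1 match of AGGTCA. The Rab1a window held none of these letters. Of all 32851 RefSeq promoter windows of this length, 12.03% held CCGGAA, 14.0% held AGGTCA, 23.3% held GAGGAA and 6.02% held CACGTG. Among the 60 windows of the 48 Rab genes with an entry, the shares were 13.3% for CCGGAA, 5% for AGGTCA, 13.3% for GAGGAA and 8.33% for CACGTG. Rab7b and Rab37 have no entry in the promoter table. A match is only a run of letters and was not tested for binding.

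The libraries of the vavCre table held 4.26 to 21.7 M reads and those of the Spic and TAM table held 0.693 to 6.29 M. Levels are normalised read counts, scaled separately in each table, so they are compared within a table only. Gene ranks were least alike within RPM_d7_Spic_KO (Spearman 0.771 between its 2 libraries) and between RPM_TAM_CreERT2 replicate 2, the library with the fewest reads, and its group (mean 0.779). Spic, the targeted gene of the Spic_KO label, stood at 931.1 and 1236 in RPM_d7_Spic_KO, against 3110, 1993 and 2203 in RPM_d7_Spic_WT. Pparg stood at 4002, 2496 and 2613 in RPM_d7_vavCre, against 1691, 1550 and 2124 in RPM_d7_WT, so it was higher in the libraries labelled vavCre. It also stood at 261.2, 181.7, 251.2 and 224.7 in RPM_TAM_CreERT2, against 92.27 and 167.8 in RPM_TAM_WT. Values per gene cannot show a deleted exon, so Pparg does not check these labels. All 6 macrophage markers (Adgre1, Csf1r, Cd68, Mertk, Fcgr1 and Lyz2) were detected in every group.

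The Rab repertoire was dominated by a few members of each role. Levels per kb of exon are given as group means with SD. In the pups of the vavCre table Rab1a, which carries cargo from the ER to the Golgi, Rab7 of the late endosome and Rab32 of lysosome-related organelles were the first 3 in every group but RPM_d7_vavCre, where Rab11a stood above Rab32. Rab1a had 1404 ± 189 in RPM_d7_vavCre and 1088 ± 135 in RPM_d7_WT (SD, n = 3 each). Rab7 had 1369 ± 109 in RPM_d7_vavCre and 1223 ± 144 in RPM_d7_WT. Rab32 had 1048 ± 88.5 in RPM_d7_vavCre, below Rab11a at 1250 ± 50.5, and 1085 ± 70.4 in RPM_d7_WT. In RPM_d7_WT the SDs of Rab7, Rab1a and Rab32 overlapped, and in RPM_d7_vavCre those of Rab1a, Rab7 and Rab11a did. These neighbours were therefore not separated. In marrow Rab1a was first in BMM_d7_vavCre (1457 ± 159), and Rab32 was first in BMM_d7_WT (1057 ± 207), where Rab1a was the third (901 ± 29.1). In both marrow groups the SD of Rab32 overlapped those of Rab1a and Rab7, so their order was not separated. In all 4 groups Rab11a led the recycling members, Rab10, which serves exocytosis, led the secretory members, and Rab20, which acts in phagosome maturation, led the early members. In both wild-type groups the secretory Rab8b was nearly level with Rab10, and their SDs overlapped. Leads within a role were not tested and depend on the exon length, taken over all annotated exons of a gene. That length is 13589 bases for Rab14 and 2992 for Rab11a. In normalised reads Rab14 stood above Rab11a in all 4 groups, with 5472 ± 440 against 2358 ± 265 in RPM_d7_WT.

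The leaders varied more between groups of the Spic and TAM table. Rab32 had 172 ± 27.1 per kb in RPM_d7_Spic_KO, 186 ± 21.7 in RPM_d7_Spic_WT, 129 ± 64.9 in RPM_TAM_CreERT2 and 242 ± 71.6 in RPM_TAM_WT. It was first in RPM_d7_Spic_WT and RPM_TAM_WT. In RPM_d7_Spic_KO it came after Rab29 (212 ± 19.8), and in RPM_TAM_CreERT2 after Rab10 (140 ± 33.7) and Rab2a (138 ± 36.2), with SDs that overlapped. Among ER and Golgi members Rab1a led in the pups, with 86.4 ± 13.8 in RPM_d7_Spic_KO and 114 ± 19.3 in RPM_d7_Spic_WT. Rab2a, which acts between the Golgi and the ER, led in adults, with 138 ± 36.2 in RPM_TAM_CreERT2 and 130 ± 32.6 in RPM_TAM_WT. In every group but RPM_TAM_CreERT2 the SDs of Rab1a and Rab2a overlapped. Rab7 and Rab20 led their roles in all 4 groups. Among members outside the main routes, Rab28, a Rab of ciliated cells, led by the mean over all libraries of each table, with at most 84.2 per kb in a group.

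At the other end, Rab17 and Rab25, which are known from epithelia, had no read in any library of the vavCre table. The secretory Rab27a averaged 11.6 in RPM_d7_vavCre and 40.8 in RPM_d7_WT, and Rab27b averaged 3.998 in RPM_d7_vavCre and 22.8 in RPM_d7_WT. The Rab27b libraries overlapped, at 0.614, 4.24 and 7.14 in RPM_d7_vavCre and 1.21, 31.6 and 35.6 in RPM_d7_WT. Neither gene passed the test given further down in that comparison. Genes were tested where 2 or more libraries of their table reached a normalised count of 1. In the vavCre table, 56 of the 59 passed, all but Rab9b, Rab17 and Rab25. In the Spic and TAM table, 54 passed, all but Rab3b, Rab9b, Rab17, Rab25 and Rab40b.

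**Figure D1:**
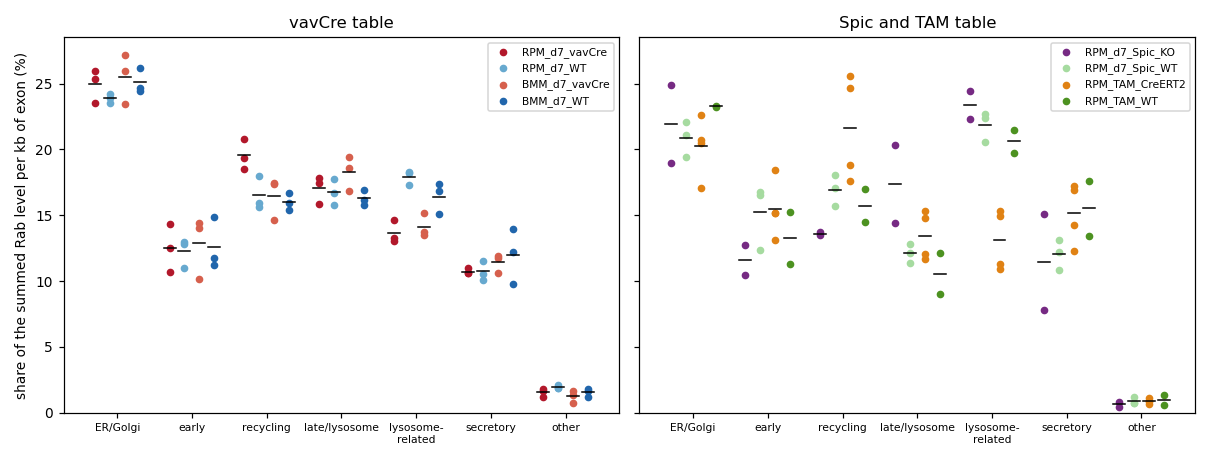
Share of the summed Rab level per kb of exon (y axis, %) taken by each role class (x axis), with a point per library and a line at the group mean, for the 4 groups of the vavCre table (left) and the 4 of the Spic and TAM table (right). The lysosome-related class lies lower in all 3 RPM_d7_vavCre libraries (13.1 to 14.7%) than in the 3 RPM_d7_WT libraries (17.3 to 18.3%).

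Described as shares of the summed Rab level per kb, the recycling class took 19.6 ± 1.2% in RPM_d7_vavCre and 16.5 ± 1.3% in RPM_d7_WT (SD, n = 3 each). The class summed to 2535 ± 33.1 per kb in RPM_d7_vavCre and 1909 ± 86.5 in RPM_d7_WT. Rab11a alone had 1250 ± 50.5 of this in RPM_d7_vavCre and 788 ± 88.6 in RPM_d7_WT. The share without Rab11a was not computed, so the difference cannot be read as one of the whole class. The lysosome-related class, that is Rab29, Rab32 and Rab38, took 13.7 ± 0.9% in RPM_d7_vavCre and 17.9 ± 0.6% in RPM_d7_WT. In both classes, and in the small class of other members (1.16 to 1.82% in RPM_d7_vavCre, against 1.85 to 2.07% in RPM_d7_WT), the 3 libraries of one genotype did not overlap those of the other. In marrow the late endosome class took 18.3 ± 1.4% in BMM_d7_vavCre and 16.3 ± 0.6% in BMM_d7_WT, and these ranges overlapped. In RPM_d7_Spic_KO the recycling class took 13.5 and 13.7%, below the 15.7 to 18.03% of RPM_d7_Spic_WT. The late endosome class took 14.4 and 20.3% in RPM_d7_Spic_KO, above the 11.4 to 12.8% of RPM_d7_Spic_WT. Rab7b belongs to this class. It took 34.3 ± 0.6% of the summed level per kb of Rab7 and Rab7b in RPM_d7_Spic_KO, and 0.1 ± 0.2% in RPM_d7_Spic_WT. The class share without Rab7b was not computed, so a shift of the other late endosome members is not shown. In adults the lysosome-related class took 10.9 to 15.3% in RPM_TAM_CreERT2, below the 19.7 and 21.5% of RPM_TAM_WT. The ER and Golgi class was also lower in RPM_TAM_CreERT2 (17.1 to 22.6%) than in RPM_TAM_WT (23.2 and 23.3%), and the recycling class was higher (17.6 to 25.6%, against 14.5 and 16.96%). The shares are a description and were not tested, and a share can move because another class, or 1 member of its own class, moved.

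In spleen pups of the vavCre genotype, 3 of the 56 tested Rabs passed the test (5.36%), against 5.52% of all genes tested. The test was limma on log2(value + 1), and a call was a Benjamini-Hochberg adjusted p under 0.05 over all 15130 genes. Rab7b of the late endosome and Rab11a of recycling endosomes rose, where 2.98% of all genes did, and the Golgi-associated Rab19 fell, where 2.54% did. In marrow 4 of the 56 passed (7.14%), against 7.81% of all genes. Rab7b, the ER to Golgi Rab1a and the early endosome Rab31 rose, where 3.41% of all genes did, and Rab19 fell, where 4.4% did. The share of Rabs called was thus close to the share of all genes in both tissues. The median log2 change of the tested Rabs was 0.13 in spleen, where it was -0.02 over all genes, and 0.14 in marrow, where it was -0.04 over all genes. By libraries that do not overlap, 11 of the 56 Rabs were higher in RPM_d7_vavCre than in RPM_d7_WT (19.6%), against 11.6% of all genes, and 6 were lower (10.7%), against 12.4%. In marrow 10 were higher in BMM_d7_vavCre than in BMM_d7_WT (17.9%), against 8.96% of all genes, and 3 were lower (5.36%), against 10.9%. Rab10, Rab14, Rab21, Rab31 and Rab7b were higher in both tissues by this count, and Rab19 was lower in both. The share of all genes with this in both tissues was not counted, so these names are a description only.

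**Figure D2:**
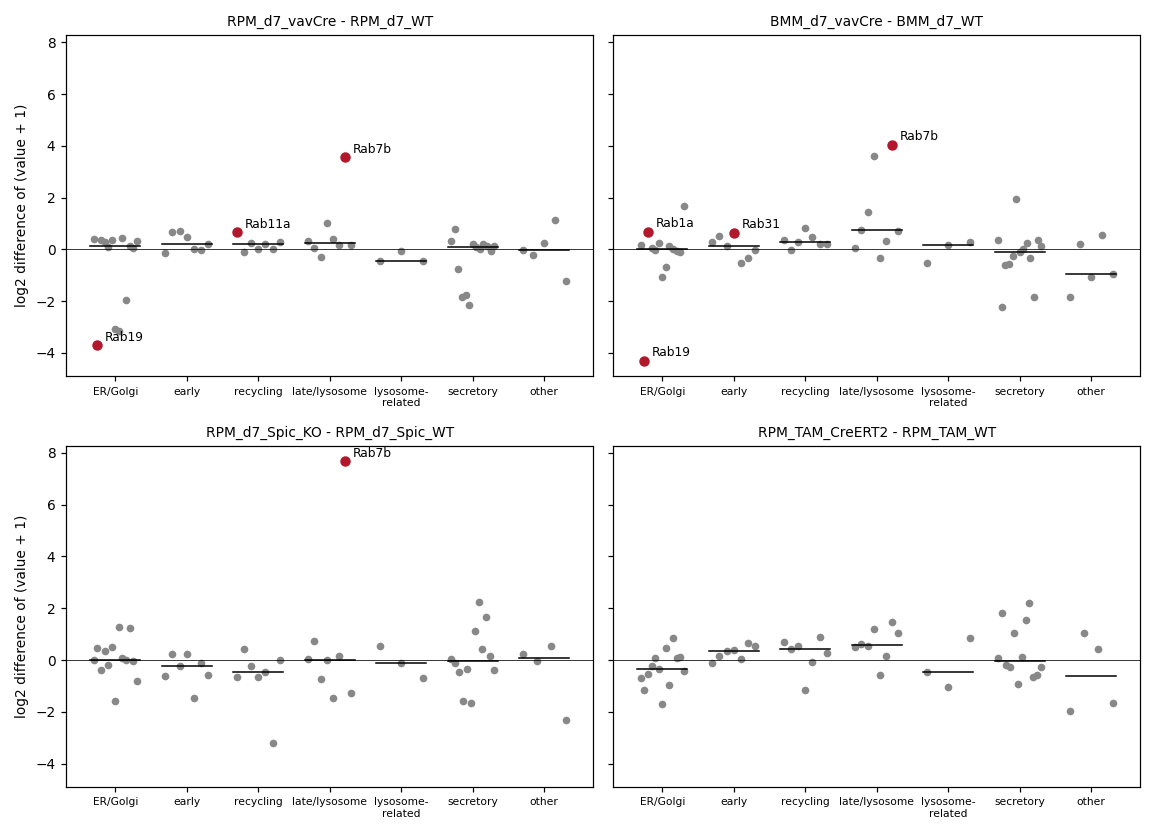
Log2 difference of (value + 1) of each tested Rab gene (y axis) by role class (x axis) in the 4 genotype comparisons, with a line at the class median and called genes in red with their names. Rab7b is called in 3 of the 4 panels, at 3.55, 4.03 and 7.69, and no gene is called in RPM_TAM_CreERT2 minus RPM_TAM_WT.

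Among late endosome members Rab7b was the one called, with 1 of 8 tested in spleen and 1 of 8 in marrow. Rab7b (chr1:131688695-131715439, plus strand, GRCm38) acts in transport between late endosomes and the Golgi, and in cultured macrophages it lowers signalling by Toll-like receptors. Its level was 92.7, 117.0 and 99.96 in RPM_d7_vavCre, against 10.3, 9.97 and 4.56 in RPM_d7_WT. Every vavCre library of the spleen was above every wild-type one, and the log2 change was 3.55 ± 0.68 (SE, limma adjusted p = 0.00236). In marrow it was 238.6, 493.3 and 212.7 in BMM_d7_vavCre, against 8.04, 35.04 and 16.7 in BMM_d7_WT. The groups again did not overlap, with a log2 change of 4.03 ± 0.68 (limma adjusted p = 0.000725). Both calls held in each of the 22 alternatives run. Rab7b was the only Rab higher in all 6 vavCre than in all 6 wild-type libraries of the vavCre table, where 2.54% of all genes were, and no Rab was lower in all 6, where 2.76% were.

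**Figure D3:**
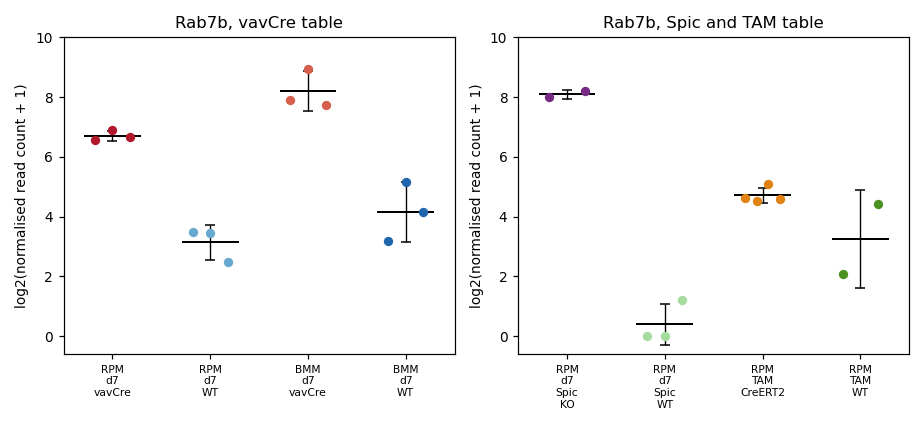
Rab7b level as log2(normalised read count + 1) (y axis) in each library (points), with the group mean as a line and its SD as a bar, for the 4 groups of the vavCre table (left) and of the Spic and TAM table (right). RPM_d7_Spic_KO stands at 252.3 and 290.3 normalised counts, and the highest RPM_d7_Spic_WT library at 1.29.

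In the Spic_KO comparison Rab7b was the single member called of 54 tested (1.85%), against 3.95% of all 16650 genes tested. Of all genes 1.47% rose and 2.48% fell. Rab7b stood at 252.3 and 290.3 in RPM_d7_Spic_KO, against 0, 0 and 1.29 in RPM_d7_Spic_WT, where all 3 libraries together held 4 reads. The log2 change was 7.69 ± 0.89 (SE, limma adjusted p = 2.9e-05) and lay between 5.67 and 10.14 with other pseudocounts. The call held without either RPM_d7_Spic_KO library, at 7.79 without replicate 1 and 7.59 without replicate 2. The ratio of reads per depth was 671, with a 95% counting interval of 261 to 2466 that covers counting error only. Within the Rab7 pair, Rab7b took 34.3 ± 0.6% of the summed level per kb in RPM_d7_Spic_KO and 0.1 ± 0.2% in RPM_d7_Spic_WT. Rab7 itself, the Rab that drives fusion of late endosomes with lysosomes, had 267.8 and 320.3 in RPM_d7_Spic_KO and 311.4, 228.1 and 255.0 in RPM_d7_Spic_WT, so its groups overlapped. In adults Rab7b was 23.9, 22.2, 32.9 and 23.1 in RPM_TAM_CreERT2, against 3.27 and 20.3 in RPM_TAM_WT. These groups did not overlap either, but the log2 change of 1.46 did not pass the test (limma adjusted p = 0.716).

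Summed levels of marker genes, of macrophages and of other cells, differed between some of these groups and overlapped between others. The 8 neutrophil markers summed to 2444 to 5455 in RPM_d7_vavCre, above the 318 to 2427 of RPM_d7_WT, with no marker at 0 in either group. In marrow they summed to 1313 to 1928 in BMM_d7_vavCre, with Elane and Ly6g at 0, within the 960 to 4192 of BMM_d7_WT, with Elane at 0. In RPM_d7_Spic_KO they summed to 10.01 and 253.5, against 28.6, 54.0 and 31.4 in RPM_d7_Spic_WT, with Elane and Ly6g at 0 in both groups. The 8 erythroid markers took 1.09 to 1.53% of all signal in RPM_d7_vavCre, below the 2.15 to 3.32% of RPM_d7_WT, and 0.90 to 1.34% in BMM_d7_vavCre, below the 2.37 to 3.56% of BMM_d7_WT. The 6 macrophage markers summed to 109511 to 114157 in RPM_d7_vavCre, above the 62936 to 79298 of RPM_d7_WT, and to 92209 to 105549 in BMM_d7_vavCre, above the 58394 to 68413 of BMM_d7_WT. In RPM_d7_Spic_KO the macrophage markers summed to 6113 and 6194, below the 7881 to 11921 of RPM_d7_Spic_WT. The 8 red pulp macrophage markers, none at 0 in a group, summed to 135525 to 156257 in RPM_d7_vavCre, below the 181706 to 205889 of RPM_d7_WT. In RPM_d7_Spic_KO they summed to 10569 and 10573, below the 19879 to 28904 of RPM_d7_Spic_WT. In marrow they summed to 75910 to 84412 in BMM_d7_vavCre, below the 120188 to 125924 of BMM_d7_WT. The 7 B cell markers, none at 0 in a group, summed to 1009 to 2032 in BMM_d7_vavCre, below the 2888 to 8804 of BMM_d7_WT, and to 1134 to 3114 in RPM_d7_vavCre, which overlapped the 2676 to 6057 of RPM_d7_WT. The B cell markers summed to 519 and 607 in RPM_d7_Spic_KO, which overlapped the 474 to 657 of RPM_d7_Spic_WT. The erythroid markers took 5.03 and 5.39% of all signal in RPM_d7_Spic_KO, which overlapped the 5.14 to 7.27% of RPM_d7_Spic_WT. The part of these shifts in the Rab results was not tested. In such bulk libraries, fewer cells of a type and less RNA per cell cannot be told apart.

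Of the recycling members, Rab11a was the one called in the spleen vavCre comparison, 1 of 7 tested. It brings membrane and receptors from the recycling endosome to the cell surface. Its level was 3682, 3624 and 3910 in RPM_d7_vavCre, against 2088, 2618 and 2368 in RPM_d7_WT, with no overlap. The log2 change was 0.67 ± 0.17 (SE, limma adjusted p = 0.0225). Leaving out any single RPM_d7_vavCre library, RPM_d7_WT replicate 1 or RPM_d7_WT replicate 3 ended this call, with limma adjusted p between 0.0567 and 0.12. In marrow Rab11a was 2983, 2205 and 2476 in BMM_d7_vavCre, against 1593, 1810 and 2605 in BMM_d7_WT, which overlapped, with a log2 change of 0.37 that did not pass (limma adjusted p = 0.217). Its close paralog Rab11b averaged 1244 in RPM_d7_vavCre and 1337 in RPM_d7_WT, a log2 change of -0.10. Rab14, which recycles from early endosomes and was the member with most normalised reads in the vavCre table, averaged 6484 ± 327 in RPM_d7_vavCre and 5472 ± 440 in RPM_d7_WT, and its log2 change of 0.25 did not pass (limma adjusted p = 0.278).

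In the Spic pups the values of Rab11a lay the other way. It stood at 191.2 and 215.8 in RPM_d7_Spic_KO, against 372.3, 290.1 and 296.8 in RPM_d7_Spic_WT, a log2 change of -0.64 that did not pass (limma adjusted p = 0.252). Its share of the Rab11 pair per kb was 54.5 ± 0.5% in RPM_d7_Spic_KO and 71.5 ± 2.7% in RPM_d7_Spic_WT, and neither range reached the other. In RPM_d7_vavCre that share was 86.0 ± 1.2%, against 78.3 ± 0.7% in RPM_d7_WT. Rab4a, which drives fast recycling, was 0.501 and 0 in RPM_d7_Spic_KO, against 17.7, 5.26 and 11.3 in RPM_d7_Spic_WT, and did not pass (log2 change -3.21, limma adjusted p = 0.123). By libraries that do not overlap, 9 of 54 Rabs were lower in RPM_d7_Spic_KO than in RPM_d7_Spic_WT (16.7%), against 19.4% of all genes, and 6 were higher (11.1%), against 14.8%. Rab4a, Rab11a, Rab14 and Rab5a were among the 9.

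**Figure D4:**
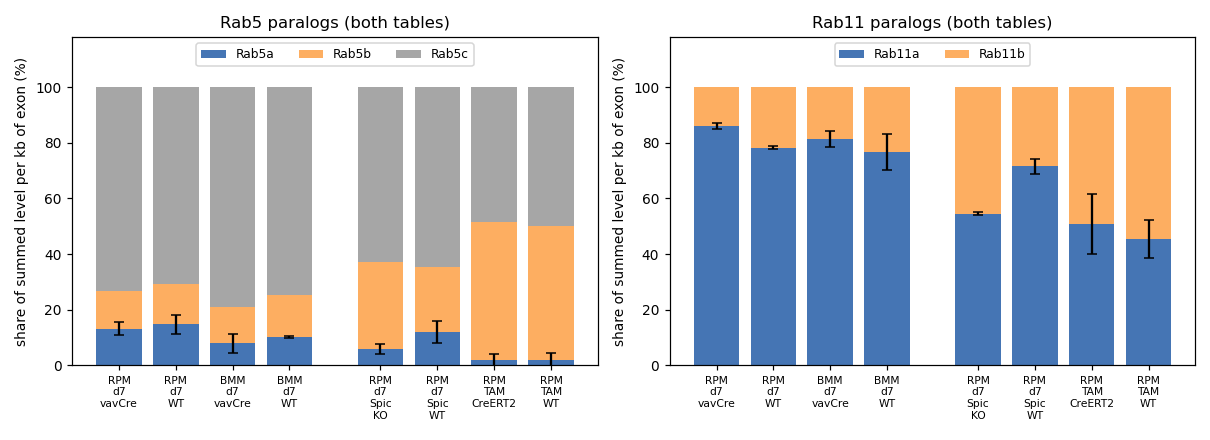
Share of the summed level per kb of exon (y axis, %) taken by each Rab5 paralog (left) and Rab11 paralog (right) in the 8 groups, 4 of the vavCre table and then 4 of the Spic and TAM table, with bars stacked by paralog and the SD over libraries drawn on Rab5a and Rab11a. Within the Spic and TAM table Rab5a takes 1.7% in RPM_TAM_CreERT2 and 2.0% in RPM_TAM_WT, against 5.9% in RPM_d7_Spic_KO and 11.9% in RPM_d7_Spic_WT. The libraries of RPM_TAM_CreERT2 (up to 5.2%) and RPM_d7_Spic_KO (from 4.6%) overlap.

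Of the 7 early endosome members limma called 0 in the spleen vavCre comparison, with 3 at an unadjusted p under 0.05 (Rab21, Rab22a and Rab31), and it called Rab31 in marrow. Such a p was found in spleen for 14 of the 56 tested Rabs and for 2439 of all 15130 genes tested. In spleen edgeR also called 0 of the 7, DESeq2 called Rab22a and Rab31, and limma on the compared groups alone called Rab22a. Rab31 works between the Golgi and early endosomes. It was 1629, 1727 and 1356 in BMM_d7_vavCre, against 892.9, 1088 and 1046 in BMM_d7_WT, without overlap and with a log2 change of 0.64 ± 0.17 (SE, limma adjusted p = 0.0228). That call was lost in a fit of the compared groups alone (limma adjusted p = 0.068) and without BMM_d7_WT replicate 1 (0.0886), BMM_d7_vavCre replicate 1 (0.0649) or BMM_d7_vavCre replicate 2 (0.0785). In spleen Rab31 was 1923, 1568 and 1670 in RPM_d7_vavCre, against 1368, 1064 and 1324 in RPM_d7_WT, also without overlap, but the log2 change of 0.46 did not pass (limma adjusted p = 0.139). Rab22a, a relative of Rab31 on early endosomes, averaged 736 ± 66.4 in RPM_d7_vavCre and 448 ± 78.4 in RPM_d7_WT, and its log2 change of 0.73 did not pass (limma adjusted p = 0.107).

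The Rab5 paralogs govern fusion of early endosomes. By limma, edgeR and DESeq2 0 of the 3 were called in any of the 7 comparisons, and limma gave 1 unadjusted p under 0.05, for Rab5a in RPM_d7_vavCre against BMM_d7_vavCre. In that comparison 2495 of all 15130 genes tested had one. The makeup of the Rab5 paralogs differed between ages in the Spic and TAM table. Rab5a was 4.54, 0, 15.99 and 2.57 in RPM_TAM_CreERT2 and 0.817 and 8.68 in RPM_TAM_WT, while the pups had 16.02 and 9.31 in RPM_d7_Spic_KO and 43.2, 39.6 and 25.6 in RPM_d7_Spic_WT. Rab5b took 49.7 ± 4.7% of the Rab5 level per kb in RPM_TAM_CreERT2 and 47.9 ± 5.1% in RPM_TAM_WT, against 31.2 ± 8.5% in RPM_d7_Spic_KO and 23.3 ± 5.0% in RPM_d7_Spic_WT. Over all members, Rab21, Rab34 and Rab4b were higher in all 6 adult than in all 5 pup libraries of the Spic and TAM table, 3 of 54 tested (5.56%), against 2.74% of all genes tested. Rab29 was lower in all 6, 1 of 54 (1.85%), against 3.69% of all genes. Rab34, which acts in the positioning of lysosomes, was 30.7, 17.7, 31.99 and 42.4 in RPM_TAM_CreERT2 and 15.5 and 26.04 in RPM_TAM_WT, against 1.001 and 0.517 in RPM_d7_Spic_KO and 2.78, 1.40 and 1.62 in RPM_d7_Spic_WT. Rab29 was 86.3, 135.2, 106.3 and 78.3 in RPM_TAM_CreERT2 and 142.9 and 132.0 in RPM_TAM_WT, against 332.4 and 291.3 in RPM_d7_Spic_KO and 223.4, 231.6 and 188.4 in RPM_d7_Spic_WT. Age and the TAM label go together in these libraries, so their effects cannot be told apart.

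The ER and Golgi members held Rab1a and Rab19. In marrow Rab1a was 4850, 5756 and 5998 in BMM_d7_vavCre, against 3298, 3461 and 3509 in BMM_d7_WT. All vavCre libraries were higher, the log2 change was 0.69 ± 0.13 (SE, limma adjusted p = 0.00226), and the call held in each of 22 alternatives. In spleen Rab1a was 5939, 5523 and 4543 in RPM_d7_vavCre, against 3921, 3764 and 4719 in RPM_d7_WT, which overlapped, and its log2 change of 0.37 did not pass (limma adjusted p = 0.13). Rab1b, its paralog on the same route, averaged 703 in BMM_d7_vavCre and 680 in BMM_d7_WT, a log2 change of 0.06. Rab1a therefore took 82.5 ± 0.5% of the Rab1 pair per kb in BMM_d7_vavCre and 75.2 ± 3.3% in BMM_d7_WT.

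Rab19 fell in both tissues. In marrow it was 0, 1.21 and 0 in BMM_d7_vavCre, that is 1 read in all, against 26.1, 44.7 and 12.5 in BMM_d7_WT. The BMM_d7_WT level was 51.1 times the BMM_d7_vavCre level, with a 95% counting interval of 8.90 to 2044, and limma gave a log2 change of -4.30 (limma adjusted p = 0.0153). The call was lost without BMM_d7_WT replicate 2 (limma adjusted p = 0.06). In spleen Rab19 was 25.8, 5.09 and 0.793 in RPM_d7_vavCre, against 68.3, 118.8 and 78.0 in RPM_d7_WT, without overlap. The log2 change of -3.71 just passed (limma adjusted p = 0.0455) and was lost in 11 of 22 alternatives, including edgeR (edgeR adjusted p = 0.132). Leaving out any RPM_d7_WT library, RPM_d7_vavCre replicate 2 or 3, or BMM_d7_WT replicate 1 or 3 also ended it (limma adjusted p = 0.0531 to 0.218). In RPM_d7_Spic_KO Rab19 was uneven, at 2.50 and 62.1, against 17.7, 8.06 and 6.15 in RPM_d7_Spic_WT.

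**Figure D5:**
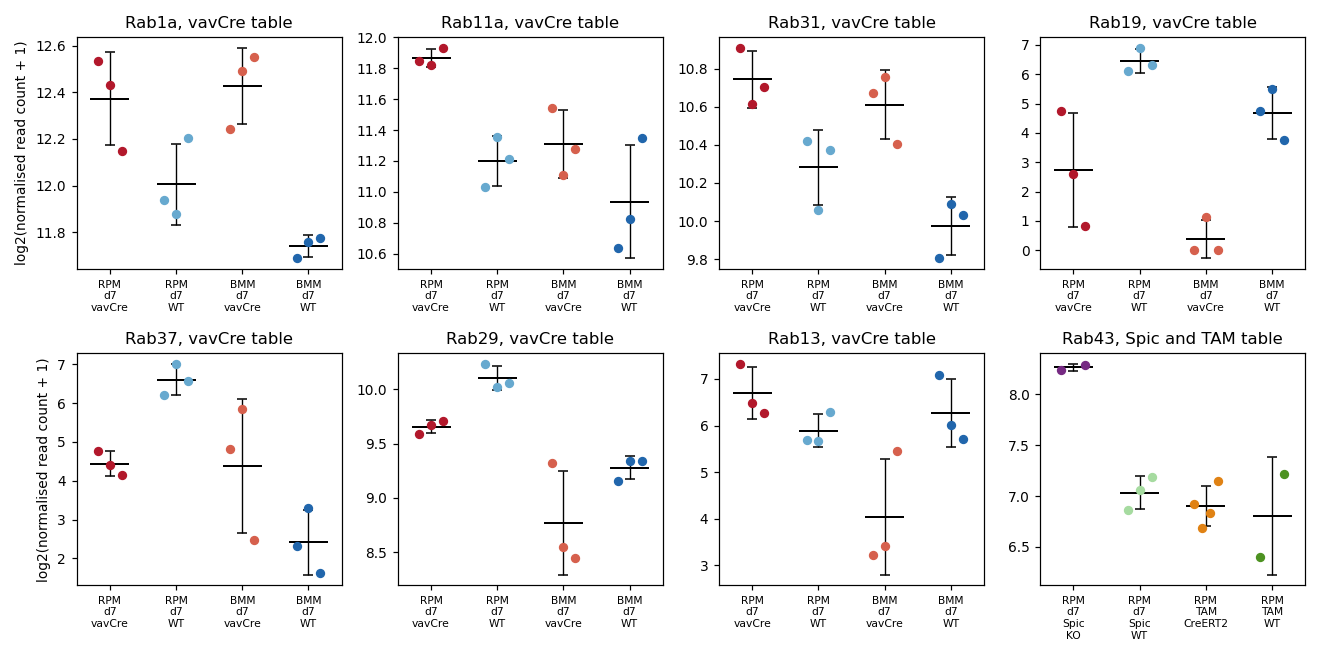
Levels as log2(normalised read count + 1) (y axes, each with its own range) of 7 Rab genes called in the vavCre table and of Rab43 in the Spic and TAM table, with a point per library, the group mean as a line and the SD as a bar. The 3 BMM_d7_vavCre values of Rab1a, 4850 to 5998, lie above the 3 BMM_d7_WT values, 3298 to 3509.

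Rab43, which acts between the ER and Golgi and on phagosomes, was the next member in the Spic_KO comparison. It stood at 301.9 and 312.0 in RPM_d7_Spic_KO, against 115.3, 132.4 and 144.3 in RPM_d7_Spic_WT. These groups did not overlap, and the log2 change was 1.23 ± 0.37 (SE, limma adjusted p = 0.0638), so it did not pass. It did pass on recovered reads with edgeR and with DESeq2, in the fit of the compared groups alone, with a filter of 10 and with median-of-ratios scaling, which brings the count there to 2. Its exons overlap those of Gm45140 on the same strand, and the reads of the pair cannot be separated.

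Of the secretory members limma called 0 of 13 in either vavCre comparison, with 3 in each at an unadjusted p under 0.05, and 0 of 12 in Spic_KO, with 1. Over all genes tested, such a p was found for 2439 of 15130 in spleen, 3112 of 15130 in marrow and 3094 of 16650 in Spic_KO. For these comparisons edgeR called 0 of the secretory members and DESeq2 called Rab13 and Rab37 in marrow. In other limma settings Rab37 was called in spleen with the compared groups alone and Rab13 in marrow with a filter of 10. The largest tissue difference in wild type belonged to one of them, Rab37, a Rab of secretory granules. It was 73.1, 128.0 and 94.9 in RPM_d7_WT, against 4.02, 8.76 and 2.09 in BMM_d7_WT, a log2 difference of 4.19 ± 0.91 (SE, limma adjusted p = 0.0126) with no overlap. The call was lost without RPM_d7_WT replicate 2 (limma adjusted p = 0.06), RPM_d7_WT replicate 3 (0.0603) or BMM_d7_WT replicate 3 (0.0561). In vavCre it was 26.4, 20.4 and 16.7 in RPM_d7_vavCre and 27.2, 57.0 and 4.53 in BMM_d7_vavCre, with a log2 difference of 0.06. The 7 mast cell, basophil and eosinophil markers summed to 2930, 4596 and 58.8 in the same BMM_d7_vavCre libraries, with Prg2 at 0, and to 84.5, 4641 and 140.05 in BMM_d7_WT, with Epx at 0. In spleen they summed to 12.9, 16.96 and 51.6 in RPM_d7_vavCre and to 992.8, 58.997 and 27.4 in RPM_d7_WT, with Epx at 0 in both. In both marrow groups the library highest in this sum was also the highest in Rab37, and in both spleen groups it was the lowest. The part of these cells in the Rab37 values was not tested. The vavCre effects on Rab37 in spleen (log2 change -2.16) and marrow (1.97) thus had opposite signs, but neither passed and the difference between them, -4.12, did not pass either (limma adjusted p = 0.455). That difference was called with DESeq2 on recovered reads. No other Rab had a called difference between the tissues in its vavCre effect by limma, edgeR or DESeq2. With limma 0 of 56 were called, against 0.119% of all genes (0.112% positive and 0.00661% negative), and 2, Rab37 and Rab13, had an unadjusted p under 0.05. Of all 15130 genes tested, 935 had one.

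Between spleen and marrow, 2 of 56 Rabs were called in wild type (3.57%), against 3.89% of all genes, and 2 of 56 in vavCre (3.57%), against 3.5% of all genes. All were higher in spleen. Of all genes, 2.07% were called higher and 1.82% lower in RPM_d7_WT, and 2.68% higher and 0.82% lower in RPM_d7_vavCre. By libraries that do not overlap, 7 Rabs were higher in RPM_d7_WT than in BMM_d7_WT (12.5%), against 10.9% of all genes, and 3 lower (5.36%), against 9.72%. In vavCre 7 were higher in RPM_d7_vavCre than in BMM_d7_vavCre (12.5%), against 10.8% of all genes, and 6 lower (10.7%), against 8.69%. Rab29, which acts at the trans-Golgi and on lysosomes, was the one called in both. It was 1201, 1040 and 1064 in RPM_d7_WT, against 569.1, 648.3 and 646.9 in BMM_d7_WT (log2 difference 0.82 ± 0.22, limma adjusted p = 0.0428). It was 769.6, 813.9 and 835.4 in RPM_d7_vavCre, against 638.4, 373.3 and 348.5 in BMM_d7_vavCre (log2 difference 0.88 ± 0.22, limma adjusted p = 0.0318). All 6 spleen libraries were above all 6 marrow libraries, which held for 1 of 56 Rabs (1.79%) and for 1.83% of all genes. No Rab was lower in all 6 spleen libraries, where 1.4% of all genes were. The wild-type call was lost in 12 of 22 alternatives, among them leaving out any single RPM_d7_WT, RPM_d7_vavCre or BMM_d7_WT library (limma adjusted p = 0.0513 to 0.173). The vavCre call was lost in 6, among them leaving out any RPM_d7_vavCre library or BMM_d7_vavCre replicate 2 or 3 (limma adjusted p = 0.0817 to 0.107), and no sign changed. Rab13, an exocytic Rab, was the other one called in vavCre. It was 159.0, 88.2 and 76.2 in RPM_d7_vavCre, against 8.37, 9.70 and 43.0 in BMM_d7_vavCre, without overlap (log2 difference 2.65 ± 0.69, limma adjusted p = 0.0387). The call was lost in 13 of 22 alternatives, edgeR and leaving out any RPM_d7_WT or RPM_d7_vavCre library or BMM_d7_vavCre replicate 1 or 2 included (limma adjusted p = 0.0524 to 0.183 without a library). In wild type Rab13 was 50.8, 49.9 and 77.6 in RPM_d7_WT and 134.7, 63.1 and 51.2 in BMM_d7_WT, which overlapped, and the difference between the vavCre effects in spleen and marrow, 3.03, did not pass (limma adjusted p = 0.5).

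In adults no Rab passed. With limma 0 of 54 were called in RPM_TAM_CreERT2 against RPM_TAM_WT, where 0.144% of all genes were (0.0601% higher and 0.0841% lower), and 4, Rab32, Rab11a, Rab14 and Rab3d, had an unadjusted p under 0.05. Of all 16650 genes tested, 1244 had one. edgeR and DESeq2 on recovered reads also called 0 of the 54. By libraries that do not overlap, 7 Rabs were higher in RPM_TAM_CreERT2 (13%), against 6.07% of all genes, and 4 were lower (7.41%), against 7.6%. Rab32 was 487.2, 117.4, 318.9 and 281.2 in RPM_TAM_CreERT2, against 683.5 and 446.7 in RPM_TAM_WT, which overlapped (log2 change -1.04, limma adjusted p = 0.53). Rab11a was 282.8, 254.8, 285.1 and 355.7 in RPM_TAM_CreERT2, against 192.7 and 164.6 in RPM_TAM_WT, without overlap (log2 change 0.71, limma adjusted p = 0.57). The 8 erythroid markers took 12.7 to 20.7% of all signal in RPM_TAM_CreERT2 and 7.48 to 10.98% in RPM_TAM_WT. The B cell markers summed to 464 to 561 in RPM_TAM_CreERT2, below the 917 and 1018 of RPM_TAM_WT. The part of both lists in these values was not tested.

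The regulators and effectors of Rabs were read from 4 lists of 129 genes, of which 125 were tested in the vavCre table and 122 in the Spic and TAM table. In the spleen vavCre comparison 3 rose and 1 fell, that is 3.2% called, against 5.52% of all genes (2.98% higher and 2.54% lower). Rab11fip5, an effector of Rab11, rose to 710.7, 921.6 and 913.1 in RPM_d7_vavCre, against 102.7, 235.2 and 120.9 in RPM_d7_WT, a log2 change of 2.55 ± 0.31 (SE, limma adjusted p = 2.35e-05). Every vavCre library was higher, and the call held in all 22 alternatives. Tbc1d4, a GTPase-activating protein for Rab10 and its relatives, averaged 1905 ± 154 in RPM_d7_vavCre and 1005 ± 116 in RPM_d7_WT (log2 change 0.92, limma adjusted p = 0.00482). Tbc1d14, a regulator of autophagy that binds Rab11, averaged 1438 ± 160 in RPM_d7_vavCre and 875 ± 23.7 in RPM_d7_WT (log2 change 0.71, limma adjusted p = 0.0321). Sytl4, a Rab27 effector of granule docking, fell to 3 reads in RPM_d7_vavCre (1.23, 0 and 0.793), against 18.1, 38.2 and 21.4 in RPM_d7_WT (limma adjusted p = 0.0229). The calls of Tbc1d14 and Sytl4 were each lost without any RPM_d7_WT library or RPM_d7_vavCre replicate 2 or 3 (limma adjusted p = 0.0529 to 0.133), and edgeR did not call Sytl4.

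In marrow 8 of these genes rose and 4 fell, that is 9.6% called, against 7.81% of all genes (3.41% higher and 4.4% lower). Rab11fip5 was 891.7, 1296 and 1369 in BMM_d7_vavCre, against 261.4, 151.6 and 221.6 in BMM_d7_WT (log2 change 2.49 ± 0.31, limma adjusted p = 3.62e-05). Tbc1d4 averaged 2200 ± 135 in BMM_d7_vavCre and 871 ± 272 in BMM_d7_WT (log2 change 1.38, limma adjusted p = 9.76e-05). Both stood above every wild-type library in each marrow vavCre library. Sbf2, an exchange factor of the myotubularin family, also rose (log2 change 0.99, limma adjusted p = 0.0214). Sytl4 had 1 read in BMM_d7_vavCre, against 6.03, 64.8 and 32.4 in BMM_d7_WT, and the exchange factors Dennd5b and Dennd2d fell (log2 change -3.70 and -0.94, limma adjusted p = 0.0253 and 0.038). Rabif, Ric1, Rabgap1l, Bicd2 and Vps8 were the other ones that rose, and Rab11fip4 the other that fell, and edgeR called neither Rabif nor Rab11fip4. The Sbf2 call was lost without BMM_d7_vavCre replicate 1 (limma adjusted p = 0.0731) or BMM_d7_WT replicate 2 (0.08), and the Sytl4 call without BMM_d7_WT replicate 2 (0.0549). The calls of Dennd5b and Dennd2d were lost in 10 and 11 of 22 alternatives, Dennd5b with edgeR and DESeq2 and both without BMM_d7_WT replicate 1 or 2 or BMM_d7_vavCre replicate 1. Without the libraries whose absence ended the call, the limma adjusted p was 0.0517 to 0.114 for Dennd5b and 0.0503 to 0.154 for Dennd2d. For the difference between the tissues in the vavCre effect, limma called 0 of the 125 with 4 at an unadjusted p under 0.05, edgeR called 0 and DESeq2 called 1, Rabif. Of all 15130 genes tested, 935 had such a p with limma.

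In Spic_KO 2 of the listed genes rose and 3 fell, that is 4.1% called, against 3.95% of all genes (1.47% higher and 2.48% lower). Tbc1d4 was lower here, at 27.0 and 50.7 in RPM_d7_Spic_KO, against 211.6, 171.3 and 102.3 in RPM_d7_Spic_WT (log2 change -2.03 ± 0.40, limma adjusted p = 0.00551), and this call held in all alternatives run. Its sign was thus opposite to that in vavCre, in another table and against other controls. The Rab GTPase-activating protein Tbc1d2b fell too (log2 change -1.51, limma adjusted p = 0.0301), as did the exchange factor Dennd2c, which had 1 read in RPM_d7_Spic_KO, against 21.7, 28.03 and 22.3 in RPM_d7_Spic_WT (limma adjusted p = 0.0163). Rufy3, which binds small GTPases of endosomes and lysosomes, rose (log2 change 1.63, limma adjusted p = 0.0308). Dennd5b was listed at 9.01 and 83.8 in RPM_d7_Spic_KO, and at 0 in all RPM_d7_Spic_WT libraries (limma adjusted p = 0.0406). The calls of Tbc1d2b, Dennd2c, Rufy3 and Dennd5b were each lost without any RPM_d7_Spic_WT library or RPM_d7_Spic_KO replicate 2 (limma adjusted p = 0.0562 to 0.369), and that of Dennd5b also without RPM_TAM_CreERT2 replicate 4 (limma adjusted p = 0.058) or replicate 5 (0.0548). In adults limma called 0 of the 122 with 10 at an unadjusted p under 0.05, and edgeR and DESeq2 called 0. Of all 16650 genes tested, 1244 had such a p with limma.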

How the data were processed

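Normalised read counts of 23 macrophage libraries were used as deposited, as 2 tables scaled separately; the submitters' processing notes name STAR, edgeR and GRCm38 and give no versions. These signal values are gene counts that the authors divided by a factor per library, since whole reads were recovered in the deposited files for 96.6 to 100% of values up to 500 reads (tolerance 0.1 read). How reads were assigned to genes or strands is not given in the sources used here.

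The main test was limma 3.58.1 (R 4.3.3; trend, robust) on log2(value + 1), fitted over each whole table for genes with a value of 1 or more in 2 libraries, with Benjamini-Hochberg adjustment and a call under 0.05. On recovered reads, edgeR 4.0.16 (quasi-likelihood) and DESeq2 1.42.0 were alternatives. Only the limma fit was tried on simulated data, for the genotype comparisons and with the same dispersion for every gene. The edgeR and DESeq2 fits were not. Levels per kb used exon lengths of GENCODE vM21 (GRCm38), promoters came from RefSeq (GRCm38.p6), and depth was 0.693 to 21.7 M reads. Counting intervals cover counting error only.

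The members, role classes and lists were chosen with earlier results of these data known. The genes named were every Rab called in 1 or more of 7 comparisons, the member of each role with the highest level per kb in a table, Pparg, Spic, and, per genotype comparison, up to 3 called regulators or effectors each way by smallest p, where the group with the higher mean reached 20. All others named, such as Rab43, Rab4a, the paralogs and the rest of the called regulators, were chosen after their values were seen. Exons of Rab24, Rab26, Rab2b, Rab33b, Rab3a, Rab43, Rab4b, Rab5a, Rab6a and Rab7 overlap another gene, so their values are less certain. Alternatives were other filters, pseudocounts, scaling, a replicate block, the compared groups alone and leaving out each library.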

Additional observations from a re-analysis of the deposited data

Results flagged for a closer look

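Rab7b in RPM_TAM_CreERT2 replicate 4 stood at 32.93 normalised counts, and the other 3 libraries of that group at 22.16, 23.11 and 23.85. Its gap to the nearest library was 0.843 of the whole range of the group, above the critical value of Dixon's test for 4 samples, 0.83. Of 14 group values checked this was 1, and chance alone marks about 1 in 20. All 4 values lie above both RPM_TAM_WT libraries, 3.27 and 20.3, with or without this one.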

How the results depend on the processing

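The number of Rabs called moved by over 1.5 times as follows. For RPM_d7_vavCre against RPM_d7_WT, 3 became 5 with the compared groups alone and 5 with DESeq2. For BMM_d7_vavCre against BMM_d7_WT, 4 became 8 with DESeq2 and 2 with a log2 change of at least 1. The difference between these effects had 0, and 1 with DESeq2. For RPM_d7_WT against BMM_d7_WT, 2 became 1 with no filter, with median-of-ratios scaling, with the replicate block and with a log2 change of at least 1. For RPM_d7_vavCre against BMM_d7_vavCre, 2 became 1 with no filter, the compared groups alone, the replicate block, edgeR (TMM and RLE) and a log2 change of at least 1, and 5 with DESeq2. For RPM_d7_Spic_KO against RPM_d7_Spic_WT, 1 became 2 with a filter of 10, median-of-ratios scaling, the compared groups alone, edgeR (TMM and RLE) and DESeq2. The cause was not tested. Leaving out each library gave 1 to 3, 3 to 5, 0 to 0, 0 to 2, 0 to 3 and 1 to 2 calls in the same order, and 0 to 0 in adults. The count was 1 for RPM_d7_vavCre against RPM_d7_WT without RPM_d7_WT replicate 1 or 3 or RPM_d7_vavCre replicate 2 or 3. It was 0 between tissues in wild type without RPM_d7_WT replicate 2 or 3 or BMM_d7_WT replicate 3, and 0 in vavCre without any RPM_d7_vavCre library or BMM_d7_vavCre replicate 2.

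Over the 27 called gene results named or listed, 469 of 588 alternatives kept the call, 119 lost it and 0 reversed the direction. Counting the vavCre table by name only, an alternative chosen after seeing the data, drops Rab7b and leaves 2 and 3 calls in the vavCre comparisons.

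Libraries with the same replicate number showed little shared deviation from their group means (correlations of -0.033 to 0.0823). With means of 2 or 3 libraries this cannot decide whether equal numbers mark paired samples, and the labels do not say. With the replicate block the counts were 3, 4, 0, 1, 1 and 1 in the order above. No paired analysis was possible for the adults because their groups share 1 number. Depth and 2 libraries in RPM_d7_Spic_KO and in RPM_TAM_WT limit what could be detected.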
